A study of Mus musculus with 4 samples.

Results

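Monocytic cells were examined in droplet single-cell RNA libraries of mouse bone marrow labelled c-Kit+, the surface receptor used to enrich blood stem and progenitor cells. The cells were chosen by their own UMIs, the counted molecules of each gene: a cell was kept when at least 4 of the 8 genes Csf1r, Ccr2, Ms4a6c, F13a1, Fn1, Ly86, Irf8 and Cx3cr1 had at least 1 UMI and both Siglech and Cd79a had 0. This gave 1657 monocytic cells, 751 of 12948 filtered cells in the wild-type (WT) library and 906 of 13708 in the library labelled Rbm5 knockout (KO), of 51611 filtered cells in the 4 libraries of the series. The other filtered cells of these libraries, 12197 in WT and 12802 in KO, are called the other cells.

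The series asks what loss of Rbm5, an RNA-binding protein that takes part in splicing, does to MLL-AF9 leukaemia cells, with c-Kit+ marrow cells as the normal counterpart. The WT c-Kit+ group was murine bone marrow, cells labelled ckit+, of a wild type, and the KO c-Kit+ group was the same marrow fraction labelled Rbm5 knockout. The labels used here give neither group a treatment or a leukaemia fusion, and they do not state the strain, the age, the number of animals, the deleted part of Rbm5 or how it was deleted. Each group was 1 library, so no comparison between them had a replicate, no test was run, and genotype and library cannot be told apart. All intervals below are 95% intervals that cover counting error only.

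Monocytes arise in the marrow from progenitors that are shared with granulocytes or with dendritic cells. The early stages carry the proteases of the primary granules, and later stages carry the receptors for colony-stimulating factor and for the chemokine that draws monocytes out of the marrow. Classical monocytes then leave for tissues, where they can become macrophages or cells that present antigen on class II molecules, while nonclassical monocytes patrol the vessel wall.

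The Rbm5 transcript was not lower in the library labelled KO. In monocytic cells it stood at 62.6 CPM (UMIs scaled to a common total per cell set) in WT and 92.5 CPM in KO, with a KO over WT ratio of 1.48 (1.33 to 1.64), and in the other cells at 76.9 and 89.2 CPM. The deposited counts do not separate the parts of the gene, so these values do not check the deletion, and KO below means the library labelled KO. The monocytic cells held 9190267 UMIs in WT and 11272419 in KO, with medians of 12190 and 12577.5 UMIs per cell against 5170 and 5232.5 in the other cells. Mitochondrial UMIs had a median of 0.938% and 0.816% against 0.513% and 0.493%, and ribosomal protein genes 21.03% and 21.2% against 11.3% and 12.4%. A cell with more UMIs has more chances to meet the rule, and its part in these medians was not tested. Of the cell barcodes, 52 were shared by filtered cells of the WT and KO libraries but 0 by their monocytic cells, while 13 WT and 8 KO monocytic cells had a barcode also found in a filtered cell of another library.

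Monocytic cells made up 5.80% (5.40 to 6.22) of the WT library and 6.61% (6.20 to 7.04) of the KO library. The ratio of the shares was 1.14 (1.03 to 1.26), which was not tested because each share comes from 1 library. Most cells of either library were far from the threshold. In WT, 9657 cells had none of the 8 genes, 182 had 3, 185 had 4 and 248 had 5, and in KO the same counts were 9965, 214, 247 and 289. With Siglech and Cd79a at 0, the cells just outside the threshold, at 3 genes, held Ms4a6c at 247 and 213 CPM in WT and KO, and those just inside, at 4 genes, held it at 405 and 370 CPM. F13a1 was at 96.5 and 97.6 CPM just outside and at 305 and 230 CPM just inside.

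The genes of the rule describe the chosen cells and support nothing further. Ms4a6c, a membrane protein of monocytes, was at 615 and 586 CPM in WT and KO, against 15.5 and 18.5 CPM in the other cells. F13a1, the A chain of coagulation factor XIII, was at 674 and 569 CPM against 9.88 and 12.6 CPM. Irf8, a transcription factor needed for monocyte and dendritic cell fates, was at 460 and 385 CPM against 33.9 and 33.3 CPM. Among the receptors, Ccr2, which draws monocytes from the marrow, was at 205 and 229 CPM, Csf1r at 75.7 and 68.3 CPM, and the fractalkine receptor Cx3cr1 at 38.6 and 32.9 CPM. Ly86, the partner of a Toll-like receptor relative, was at 234 and 221 CPM. The matrix protein gene Fn1 was at 146 and 119 CPM. Not every chosen cell carried every gene: 98.5% of WT and 97.4% of KO monocytic cells had a UMI of Ms4a6c, but 27.0% and 26.2% had one of Fn1 and 31.7% and 30.0% one of Cx3cr1.

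**Figure D1:**
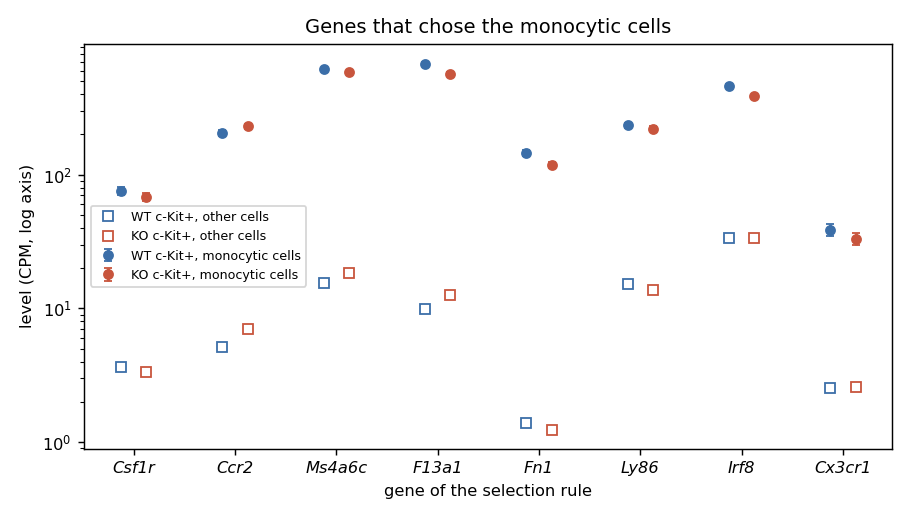
Level of the 8 selection genes (CPM, log axis) in monocytic cells (filled circles, bars are 95% counting intervals) and in the other cells (open squares) of the WT and KO c-Kit+ libraries. Ms4a6c, F13a1 and Irf8 lie highest in monocytic cells, and every gene lies lower in the other cells, as the rule requires.

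Free RNA in droplets was low for these genes. In erythroid cells, which should lack them, with each cell thinned to 2000 UMIs, Ccr2 had a UMI in 0.238% of WT and 0.375% of KO cells, against 37.5% and 41.7% of monocytic cells thinned the same way. Before thinning, with a median of 15468 and 11330 UMIs per erythroid cell, the monocytic shares were 73.5% and 82.0%. The neutrophil granule gene Camp was different. It had a UMI in 69.8% and 78.0% of thinned monocytic cells and in 66.6% and 77.2% of thinned erythroid cells, so the monocytic share was at the background. Ltf, another neutrophil granule gene, had shares of 15.8% and 19.7% against 16.6% and 20.3% and is read in the same way.

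Genes beyond those of the rule were also higher in the monocytic cells. Of 3171 genes at 50 CPM or more in the monocytic cells of both libraries, 362 (11.4%) were at least 2-fold higher than in the other cells in both libraries, and 355 of these were not used by the rule. Of the 362, 304 were on no gene list. Of 2914 genes at that level in the other cells, 253 (8.68%) were at least 2-fold lower in monocytic cells. The median log2 ratio over the genes at level in monocytic cells was 0.41 in WT and 0.39 in KO, so the lists below are read beside it. Because the cells were chosen by UMIs, these counts are a description with no test.

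The strongest of these genes by mean log2 ratio was S100a4, a calcium-binding protein of motile cells, at 185 and 177 CPM in WT and KO against 5.40 and 6.85 CPM in the other cells. It lies on chromosome 3 from 90603771 to 90606045 (GRCm38). Stxbp6, whose product binds membrane fusion proteins, was at 73.0 and 61.5 CPM against 2.08 and 2.16 CPM. Apba1 followed at 150.05 and 126 CPM against 6.87 and 5.94 CPM. The growth factor gene Nrg1, at 68.8 and 67.4 CPM, and Pid1, at 164 and 151 CPM, were more than 14-fold higher in each library, as were the membrane protein gene Ms4a4c and Pld4, an exonuclease of the endolysosome. Tifab, Rassf4, the glutamate receptor subunit gene Gria3, the galectin gene Lgals1 and Aif1, a calcium-binding protein of macrophages, completed the 12 highest. The most abundant of these was Lgals1, at 830 and 848 CPM in WT and KO.

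Few of the 355 genes outside the rule stood above both neighbouring cell sets. Cells with all 4 primary granule genes Mpo, Elane, Prtn3 and Ctsg that failed the monocytic rule served as granule progenitors (1607 in WT, 1920 in KO). Cells with a UMI of Siglech and of at least 2 of Ccr9, Klk1, Cox6a2, Ly6d and Spib served as plasmacytoid dendritic cells (81 and 99). Of the 355 genes, 137 (38.6%) were also at least 2-fold higher than in granule progenitors in both libraries, 123 (34.6%) than in plasmacytoid dendritic cells and 33 (9.30%) than in both. The genes of the rule were left out here, since granule progenitors were required to fail it. S100a4 was at 0.786 and 4.10 CPM in granule progenitors and at 12.2 and 24.5 CPM in plasmacytoid dendritic cells. Ms4a4c, Nrg1, Pid1 and Aif1 were also among the 33. Ms4a4c stood at 0.337 and 0.628 CPM in granule progenitors and at 8.75 and 22.8 CPM in plasmacytoid dendritic cells. Of the 12 highest genes, Apba1, Gria3, Pld4 and Lgals1 were higher in plasmacytoid dendritic cells than in monocytic cells. Apba1 was there at 465 and 344 CPM in WT and KO and Lgals1 at 911 and 1233 CPM. Gria3 was at 691 and 630 CPM against 385 and 291 CPM. Pld4 was at 114 and 217 CPM against 62.7 and 55.6 CPM.

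By role, 11 of the 20 classical monocyte genes were higher than in the other cells and 2 were lower, beside 11.4% and 8.68% of all genes at level. Of the list 18 were at level, with a median log2 ratio of 1.85 in WT and 1.72 in KO. Ly6c2, the surface antigen of classical monocytes, was at 1180.4 and 1143 CPM in WT and KO against 558 and 569 CPM. Plac8 was at 4052 and 4182 CPM against 1206 and 1451 CPM. Mpeg1, a pore-forming protein of phagocytes, was at 164 and 141 CPM against 18.8 and 17.4 CPM. The lower members were Chil3, at 453 and 440 CPM against 2481 and 2287 CPM, and Cybb, the catalytic chain of the phagocyte oxidase, at 460 and 419 CPM against 1095 and 1019 CPM. Both lower genes are also abundant in maturing neutrophils, which are part of the other cells.

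Of 20 lysosomal genes 15 were at level, 9 were higher and 1 was lower, beside 11.4% and 8.68% of all genes at level. The cathepsin genes Ctss and Ctsc, both proteases of the endolysosome, were at 266 and 161 CPM in WT and 274 and 155 CPM in KO, against 24.4 and 18.5 CPM in WT and 24.0 and 18.8 CPM in KO. The sphingolipid activator Psap was at 860 and 714 CPM against 166 and 148 CPM. Cd63, a tetraspanin of granules, was the lower member, at 146 and 136 CPM against 630 and 615 CPM.

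Among 30 transcription factors of mononuclear phagocytes 14 were at level, 5 were higher, Irf8 of the rule included, and 3 were lower. The 5 higher genes were among the 14 at level, beside 11.4% of all genes at level. The 3 lower ones would need the 8.68% of genes at level in the other cells, a base not counted for this list. Zeb2 was at 738 and 691 CPM against 192 and 193 CPM, and Klf4, which is needed for monocyte differentiation, was at 215 and 176 CPM against 22.2 and 18.1 CPM. Cebpe, a factor of granulocyte maturation, was lower, at 33.5 and 39.4 CPM against 199 and 204 CPM. Of 25 pattern recognition genes 5 were at level, and 4 of these were higher, Ly86 of the rule included, beside the same 11.4%. From the whole list 2 were lower. The beta-glucan receptor Clec7a was at 84.3 and 78.0 CPM against 13.9 and 11.9 CPM, and the inflammasome adaptor Pycard at 233 and 235 CPM against 89.1 and 90.3 CPM. Of 24 interferon genes 6 were at level and 5 of these were higher, again beside 11.4%. Among them was Ifi27l2a at 152 and 142 CPM against 19.0 and 20.8 CPM. Of 10 class II presentation genes 6 were at level, 5 of these were higher, beside the same 11.4%, and 0 were lower. Their values are given with the KO comparison. Some list sums were higher in plasmacytoid dendritic cells than in monocytic cells. The class II sums were 2286 and 2417 CPM in WT and KO against 1347 and 2368 CPM. The interferon sums were 3177 and 3815 CPM against 1897 and 1863 CPM. The lysosomal sums were 5007 and 5162 CPM against 3773 and 3522 CPM. The transcription factor sums were 6590 and 6460 CPM against 4816 and 4103 CPM. The classical monocyte and pattern recognition sums were lower there.

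Neutrophil and erythroid genes were mostly lower. Of 16 maturing neutrophil genes 15 were at least 2-fold lower in monocytic cells, beside 8.68% of all genes at level in the other cells. The summed level of the list was 29203 and 30193 CPM in WT and KO against 232415 and 220246 CPM in the other cells. Of 12 erythroid genes 7 were lower, beside the same 8.68%, with sums of 188 and 207 CPM against 1458 and 1350.4 CPM. The sums of the B cell list, 42.2 and 42.7 CPM, and of the T or NK cell list, 9.14 and 11.0 CPM, were also below those of the other cells, at 743 and 681 CPM and at 55.2 and 56.4 CPM. Among the B cell genes 4 of 9 were at least 2-fold lower, beside the same 8.68%. Among the T or NK cell genes 0 of 10 were. Cd79a is on the B cell list and among the 4, and Siglech is on the plasmacytoid list below. The rule set both to 0, so their part in these lists was fixed by the choice of cells. The dendritic lists had higher sums than in the other cells, the conventional one at 266 and 302 CPM against 192 and 190.1 CPM and the plasmacytoid one at 410.2 and 402 CPM against 353 and 358 CPM, with 0 of 15 and 1 of 12 genes higher. No macrophage gene of 14 was at level, with sums of 200.4 and 146 CPM. The S phase and mitosis lists, with 20 of 24 genes each at level, had 0 genes past the 2-fold threshold in either direction.

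The label c-Kit+ and the name monocytic were set against these cells' genes. Kit itself was at 40.9 and 40.8 CPM in WT and KO, close to the 46.3 and 44.2 CPM of the other cells, and had a UMI in 5.73% and 4.45% of thinned monocytic cells, below the 9.42% and 8.61% of erythroid cells, whose own progenitors also carry Kit. Cd34, a progenitor surface antigen, was higher than in the other cells, at 80.7 and 66.9 CPM against 15.3 and 16.3 CPM. Of the primary granule genes of early progenitors, Mpo was at 2242 and 2057 CPM against 787 and 887 CPM and Ctsg at 2013 and 1864 CPM against 710.2 and 825 CPM. The cells chosen by the rule ran from cells with granule protease genes to cells without them, and the name monocytic covers that whole range.

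To describe the range, each monocytic cell was thinned to 2000 UMIs and counted by how many of Mpo, Elane, Prtn3 and Ctsg it still held, leaving out 18 WT and 30 KO cells with fewer UMIs. In WT 436 cells (59.5%) held 3 or 4 of these genes, 125 (17.1%) held 1 or 2 and 172 (23.5%) held 0. In KO the numbers were 491 (56.1%), 199 (22.7%) and 186 (21.2%). These are ranges of a count and not cell types. Free RNA bears on them: thinned erythroid cells held 1 or 2 of the genes in 21.1% of WT and 32.1% of KO cells and 3 or 4 in 3.22% and 2.53%. The monocytic share with 1 or 2 genes was thus no higher than this background and is not read further, and the comparisons below set 3 or 4 genes against 0. Median depth before thinning moved with the range, at 15338.5 and 16648 UMIs with 3 or 4 genes and 4746.5 and 4390.5 UMIs with 0, and its part was not tested.

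Some progenitor genes were higher with 3 or 4 granule genes than with 0 in both libraries. Ms4a3, a gene of granulocyte and monocyte progenitors, was at 531 and 632 CPM in WT and KO with 3 or 4 granule genes and at 23.3 and 32.9 CPM with 0. Myb, a transcription factor of progenitors, was at 172 and 155 CPM against 24.3 and 65.0 CPM, and Cd34 at 99.0 and 75.4 CPM against 6.54 and 19.4 CPM. The summed S phase list was 3331 and 3262 CPM against 1524 and 1359 CPM, and the oxidative phosphorylation list 10290 and 10907 CPM against 5605 and 5929 CPM. Ly6c2 was also higher in this range, at 1309 and 1299 CPM against 749 and 573 CPM. Other progenitor genes did not follow. Flt3, a cytokine receptor of progenitors and dendritic cells, was lower with 3 or 4 granule genes, at 22.0 and 20.01 CPM against 46.7 and 103 CPM. Kit was at 48.3 CPM against 15.9 CPM in WT but at 40.7 CPM against 54.0 CPM in KO, and Sox4 likewise at 61.9 against 22.4 CPM and at 49.0 against 70.9 CPM.

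Some receptor and effector genes ran the opposite way in both libraries. Ccr2 was at 101 and 115 CPM with 3 or 4 granule genes and at 700.3 and 647 CPM with 0. Csf1r was at 46.6 and 41.5 CPM against 196 and 139 CPM, Cx3cr1 at 12.1 and 11.1 CPM against 143 and 117 CPM, and S100a4 at 48.2 and 55.6 CPM against 813 and 584 CPM. S100a4 played no part in choosing the cells, whereas Ccr2, Csf1r and Cx3cr1 did. Fn1, also a gene of the rule, was at 18.6 and 14.3 CPM against 715 and 400.3 CPM. Lyz2, the lysozyme of myeloid cells, was at 854 and 580 CPM against 10256 and 6086 CPM. Markers of other cells were higher in the same direction, and their part was not tested: the maturing neutrophil list summed to 23569 and 22739 CPM against 49675 and 45779 CPM, and the erythroid list to 144 and 163 CPM against 577 and 707 CPM. The class II invariant chain gene Cd74 was at 25.03 and 76.6 CPM against 3075 and 5071 CPM. Other monocytic genes did not follow. F13a1 of the rule was at 633 against 852 CPM in WT but at 556 against 416 CPM in KO. Irf8 of the rule was at 427 against 398 CPM in WT but at 351 against 540 CPM in KO. Plac8 was higher with 3 or 4 granule genes, at 4516 and 4699 CPM against 2379 and 2344 CPM. Clec12a was likewise at 297 and 311 CPM against 194 and 189 CPM.

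**Figure D2:**
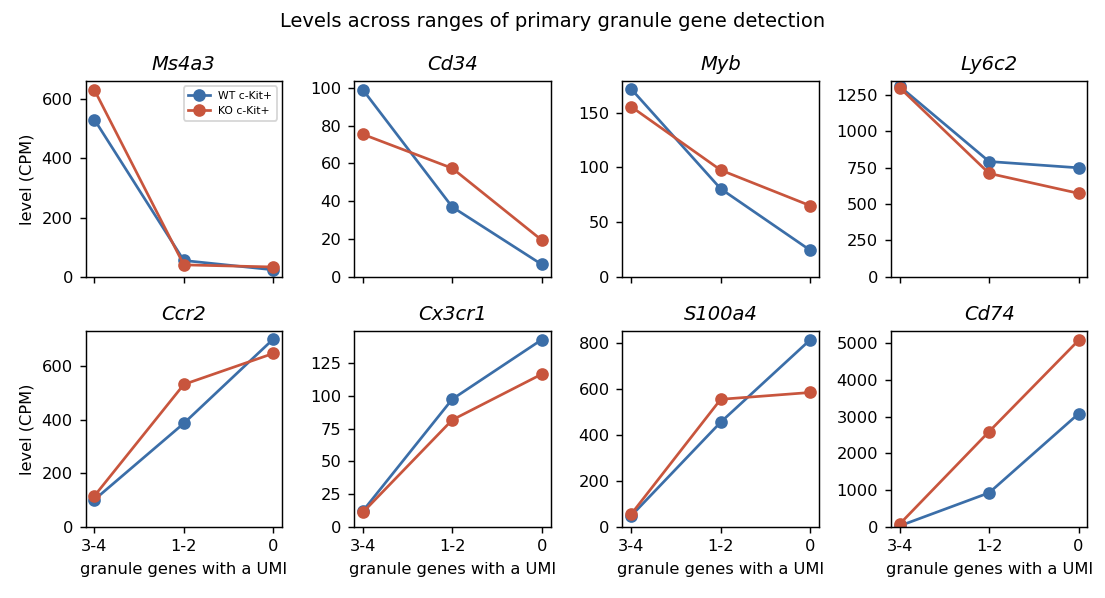
Level in CPM (linear axes from 0) of 8 genes in monocytic cells with 3 or 4, 1 or 2 and 0 primary granule genes after thinning, for WT and KO c-Kit+. Ms4a3, Cd34, Myb and Ly6c2 are lower with 0 granule genes than with 3 or 4, while Ccr2, Cx3cr1, S100a4 and Cd74 are higher, in both libraries.

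Clustering of the monocytic cells of both libraries together, without the genes of the rule, gave 9 sub-clusters, whose levels are given over both libraries together. The largest, with 196 WT and 244 KO cells, was led by Itga1, Nrg1, C1galt1c1 and Met and held Ly6c2 at 1908 CPM with Mpo at 2286 CPM, and stayed unnamed. A classical monocyte-like sub-cluster (150 WT, 198 KO) was led by Vcan and Fn1, with Ccr2 at 1168 CPM and Mpo at 31.1 CPM. A monocyte and granulocyte progenitor-like sub-cluster (120 and 131) had Elane at 8716 CPM, and its leading genes included the basophil protease genes Prss34 and Mcpt8. A further unnamed sub-cluster (111 and 112) was led by Aff3, Angpt1 and Flt3 and held Irf8 at 653 CPM and Cd34 at 168 CPM.

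The smaller sub-clusters carried genes of later or other cells. A macrophage-like sub-cluster (38 WT, 60 KO) was led by the complement genes C1qa, C1qc and C1qb and by Mrc1, the mannose receptor, with C1qa at 967 CPM. A nonclassical monocyte-like sub-cluster (27 and 17) was led by Cd36 and S1pr5, with Csf1r at 637 CPM, Klf4 at 1302 CPM and Nr4a1, a nuclear receptor of nonclassical monocytes, at 562 CPM. A conventional dendritic-like sub-cluster (10 and 28) had Irf8 at 1426 CPM and Flt3 at 182 CPM, and its leading genes included Zbtb46 and Clec9a. Its Csf1r level was 6.07 CPM.

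The data also went against the name monocytic in the conventional dendritic-like sub-cluster, with F13a1 at 36.4 CPM and Fn1 at 0 CPM. It did hold Ms4a6c at 619 CPM and Ccr2 at 461 CPM. They went against the name in 2 further sub-clusters. A maturing neutrophil-like sub-cluster (87 WT, 104 KO) was led by Ngp, Ltf and S100a9, and Scrublet, a doublet caller, marked 28.3% of its cells. An erythroid-like sub-cluster (12 and 12) was led by Rhd and Cldn13, and 75% of its cells were marked. Over all monocytic cells the marked shares were 5.59% in WT and 5.30% in KO, against 3.62% and 3.55% of the other cells. Results that rest on these sub-clusters are given below with and without them.

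**Figure D3:**
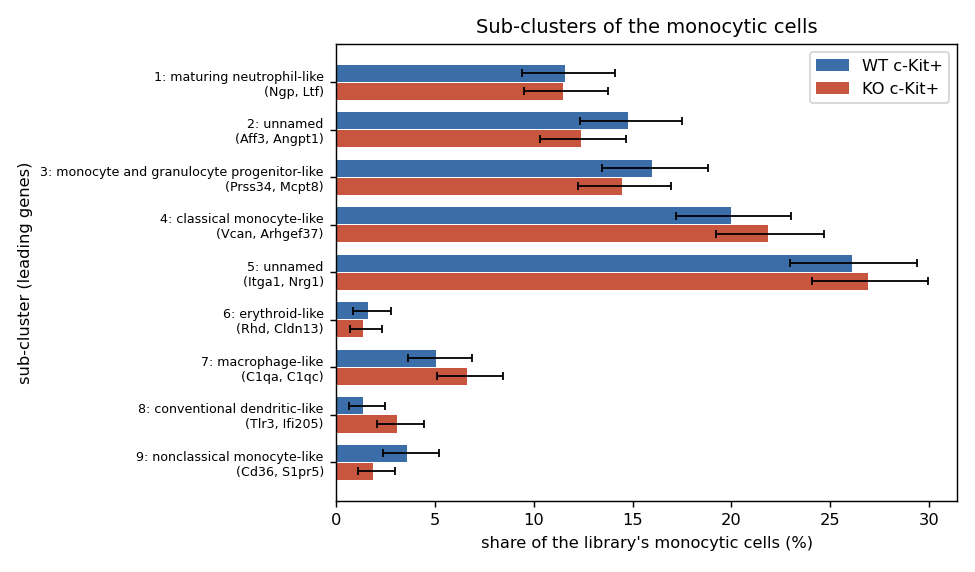
Share of each library's monocytic cells in 9 sub-clusters (percent, bars from 0, with exact 95% binomial intervals) for WT and KO c-Kit+, with 2 leading genes each. The unnamed sub-cluster led by Itga1 and Nrg1 holds 26.1% of WT and 26.9% of KO cells, and the conventional dendritic-like one 1.33% and 3.09%.

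The sizes of the sub-clusters are not compared between libraries where the genes that define them differed. The conventional dendritic-like sub-cluster varied with the clustering: it held 34 WT and 49 KO cells at a resolution of 0.8 and was not found at 0.3, nor with class II genes left out. A basophil or mast-like sub-cluster led by Prss34 (8 WT, 4 KO) appeared at 0.8, and 50% of its cells were marked as doublets.

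Against WT, few genes of the monocytic cells lay far from a ratio of 1. Of the 3293 genes that averaged at least 50 CPM, 9 (0.273%) were at least 1.5-fold higher in KO and 2 (0.0607%) at least 1.5-fold lower. The median log2 ratio of KO over WT was -0.01 with an SD over genes of 0.16, and for the same genes in the other cells it was 0.01 with an SD of 0.13. The 9 higher genes were Car1, Cd74, H2-Ab1, H2-Eb1, Ifitm1, H2-Aa, Mir6236, Chchd10 and the immunoglobulin segment Igkc. The 2 lower genes were Prss34 and the haemoglobin gene Hba-a2. Haemoglobin and immunoglobulin genes were left out of the ranking below. Hba-a2 was at 183 and 113 CPM in WT and KO, but with doublet calls left out it was at 49.5 and 79.3 CPM, the opposite direction. With doublet calls left out 11 genes were at least 1.5-fold higher, 7 of them among the 9, and 0 were lower.

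**Figure D4:**
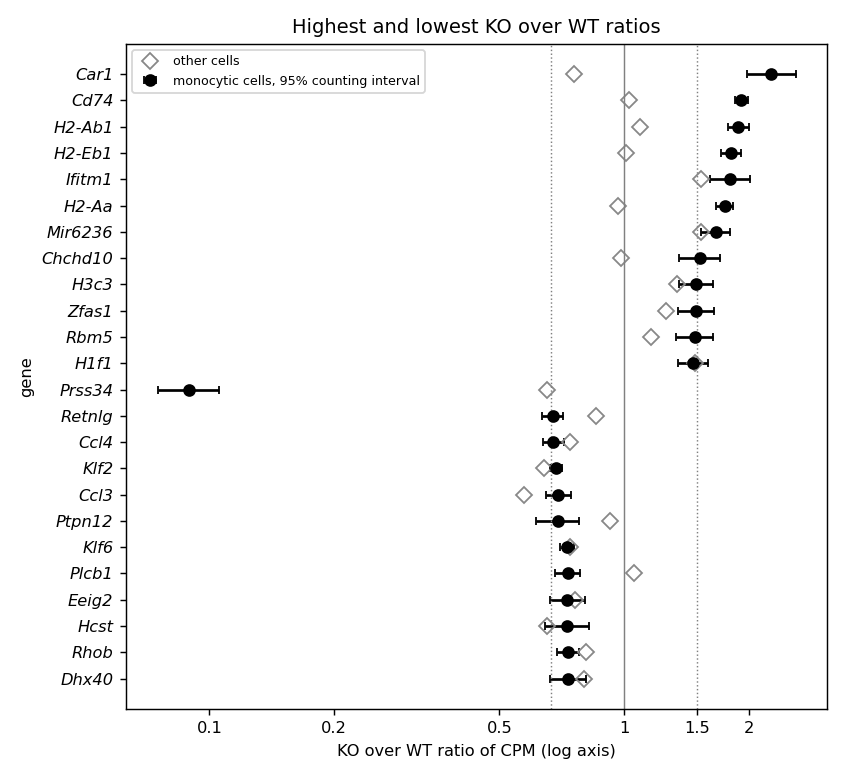
Ratio of KO over WT CPM (log axis) for the 12 highest and 12 lowest ranked genes in monocytic cells (filled circles, bars are 95% counting intervals) and in the other cells (open diamonds). The solid line marks a ratio of 1 and the dotted lines 1.5-fold. Cd74, H2-Ab1, H2-Eb1 and H2-Aa lie between 1.75 and 1.91 in monocytic cells and near 1 in the other cells, and Prss34 lies at 0.0894.

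The class II genes were the largest group among the higher genes. Class II molecules carry peptides on antigen-presenting cells, Cd74 is their invariant chain, and H2-Aa, H2-Ab1 and H2-Eb1 encode their chains. Cd74 was at 491 and 941 CPM in WT and KO monocytic cells, a ratio of 1.91 (1.85 to 1.98), and at 191 and 196 CPM in the other cells. H2-Ab1 was at 178 and 334 CPM, a ratio of 1.88 (1.77 to 1.99), and H2-Eb1 at 205 and 371 CPM, a ratio of 1.81 (1.71 to 1.91). H2-Aa was at 294 and 513 CPM, a ratio of 1.75 (1.67 to 1.83), against 86.8 and 83.9 CPM in the other cells.

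These chain genes lie together on chromosome 17 (GRCm38), H2-Ab1 from 34257689 to 34269419, H2-Aa from 34282744 to 34287823 and H2-Eb1 from 34305867 to 34316674. The peptide-loading genes H2-DMa and H2-DMb1 were at 111 and 48.3 CPM in WT and 121 and 60.1 CPM in KO, with ratios of 1.10 and 1.24, below the 1.5-fold threshold. All 6 class II genes at level of 10 on the list had ratios above 1, with a median log2 ratio of 0.83 in monocytic cells and 0.04 in the other cells, and 4 of them were past 1.5-fold, beside 0.273% of all genes. In cells thinned to 2000 UMIs, UMIs of H2-Aa were found in 13.4% of WT monocytic cells (11.0 to 16.0) and in 22.9% of KO ones (20.2 to 25.9), against 1.19% and 1.69% of erythroid cells.

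The class II UMIs came from a minority of the cells. Summed over the 6 genes, 72 WT cells (9.59%, 7.58 to 11.9) and 160 KO cells (17.7%, 15.2 to 20.3) held at least 10000 CPM, a threshold set after the values were seen. At 5000 CPM the shares were 13.2% and 20.4%, and at 1000 CPM they were 17.6% and 24.1%. The share of cells was thus higher in KO at each of the 3 levels. In these high cells Cd209a, a lectin of monocyte-derived and dendritic cells, was at 229 and 205 CPM in WT and KO, against 2.49 and 1.34 CPM in the remaining monocytic cells. Ciita, the regulator of class II transcription, was at 178 and 168 CPM against 1.92 and 2.59 CPM. Ccr2 was at 870 and 760.4 CPM against 179 and 187 CPM, and Ly6c2 was lower, at 207 and 392 CPM against 1219 and 1203 CPM. The high cells of the libraries also differed from each other. In WT 33 of the 72 were in the macrophage-like, 25 in the classical monocyte-like and 7 in the conventional dendritic-like sub-cluster. In KO the numbers were 57, 59 and 26 of 160. The neutrophil-like sub-cluster held 3 of the WT and 9 of the KO high cells. Over all high cells the macrophage gene C1qa was at 490.03 and 155 CPM in WT and KO and Fn1 at 272 and 108 CPM. Elane was at 56.7 and 1237 CPM in them and Mpo at 17.0 and 226 CPM. Of the conventional dendritic genes, Flt3 was at 62.3 and 91.8 CPM in the WT and KO high cells and Clec9a at 51.0 and 71.5 CPM. Zbtb46 was at 25.5 and 39.3 CPM and Xcr1 at 0 and 9.53 CPM. Irf8 of the rule was at 411 and 571 CPM. Cd209a, Itgax, at 68.0 and 42.9 CPM, and Ccr7, at 2.83 and 0 CPM, were instead lower in KO.

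**Figure D5:**
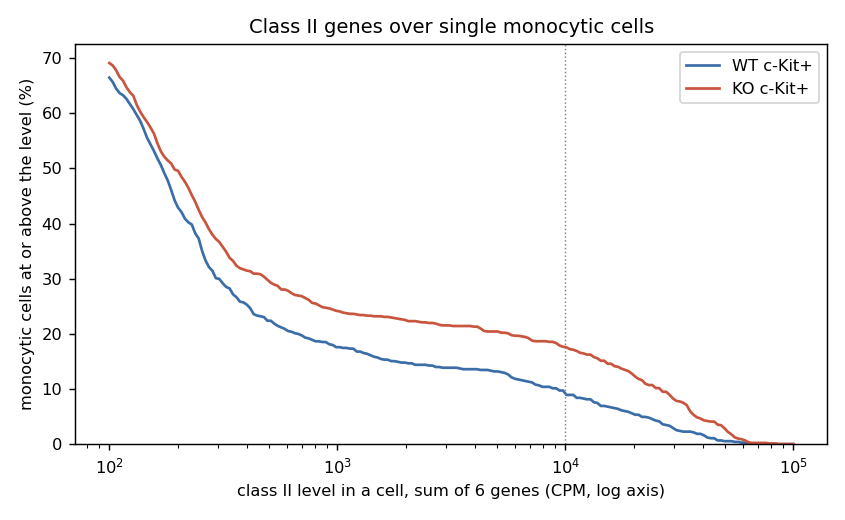
Share of monocytic cells (percent) at or above a given class II level, the sum of 6 genes in CPM of the cell (log axis), for WT and KO c-Kit+. The dotted line marks 10000 CPM, where 9.59% of WT and 17.7% of KO cells lie at or above it.

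The ratios had different sizes in different sub-clusters, which was not tested. Class II genes were not left out of this clustering, so they could help decide which cells fell in which sub-cluster. The ratios and shares by sub-cluster are therefore a description only. With class II genes left out, the classical monocyte-like sub-cluster held 181 WT and 230 KO cells, and no ratio was taken from it. In the classical monocyte-like sub-cluster Cd74 was at 2149 and 4676 CPM in WT and KO, a ratio of 2.18 (2.05 to 2.31), and H2-Aa had a ratio of 2.003 (1.84 to 2.18). There, 25 of 150 WT cells (16.7%, 11.1 to 23.6) and 59 of 198 KO cells (29.8%, 23.5 to 36.7) held at least 10000 CPM of class II. In the macrophage-like sub-cluster, where the level was highest, the ratios were 1.48 (1.39 to 1.57) for Cd74 and 1.25 (1.16 to 1.34) for H2-Aa. The nonclassical monocyte-like sub-cluster had ratios of 0.915 (0.682 to 1.22) and 0.865 (0.468 to 1.55), and its intervals include 1. In the monocyte and granulocyte progenitor-like sub-cluster Cd74 was low and lower in KO, at 64.7 and 5.69 CPM. There, 1 of 120 WT cells and 0 of 131 KO cells held at least 10000 CPM of class II. The part of single cells in this difference was not tested.

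Markers of other cells that present antigen were set beside these values. The conventional dendritic list summed to 266 and 302 CPM in WT and KO monocytic cells, with 1 of 15 genes at level. The B cell list summed to 42.2 and 42.7 CPM, which is not read, since the rule left out every cell with a Cd79a UMI. The macrophage list was lower in KO, at 200.4 and 146 CPM. Without the conventional dendritic-like sub-cluster the ratio of Cd74 was 1.78 (1.71 to 1.85) and that of H2-Aa 1.62 (1.55 to 1.71), and without the macrophage-like one as well they were 2.01 (1.92 to 2.11) and 2.02 (1.89 to 2.17). Without the 5 cells with most UMIs of the gene in each library they were 2.10 (2.02 to 2.18) and 1.90 (1.81 to 1.997). Those 5 cells held 16.0% of the Cd74 UMIs in WT and 7.63% in KO, and 15.6% and 7.73% of those of H2-Aa. This repeat thus took a larger part from WT and is not read as a check. Without the neutrophil-like and erythroid-like sub-clusters the ratios of Cd74 and H2-Aa were 1.95 (1.88 to 2.02) and 1.70 (1.62 to 1.78). These repeats were chosen after the data were seen, and the sub-clusters left out came from the clustering that included class II genes.

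Of the other higher genes, some were also higher in the other cells and Car1 rested on few cells. Car1, an erythroid carbonic anhydrase, was at 32.0 and 72.2 CPM in WT and KO, a ratio of 2.26 (1.97 to 2.59), but 5 cells held 67.3% of its WT and 66.1% of its KO UMIs. Without the neutrophil-like and erythroid-like sub-clusters its ratio was 1.18 (0.886 to 1.58), and with doublet calls left out it was at 23.4 and 33.4 CPM. Ifitm1, an interferon-inducible membrane protein, was at 51.0 and 91.6 CPM, a ratio of 1.79 (1.61 to 2.01), and in the other cells at 60.1 and 92.1 CPM. In cells with 5 or more of the 8 rule genes it was at 52.9 and 74.7 CPM, below 1.5-fold. Mir6236 was at 99.5 and 165 CPM, a ratio of 1.66, and the mitochondrial protein gene Chchd10 at 51.7 and 78.6 CPM, a ratio of 1.52 (1.36 to 1.70). Next in rank, below the 1.5-fold threshold, were H3c3, Zfas1, Rbm5 and H1f1, with ratios between 1.46 and 1.49.

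The lowest gene was Prss34, a serine protease of basophils, at 153 and 13.7 CPM in WT and KO monocytic cells, a ratio of 0.0894 (0.0752 to 0.106), and at 350.4 and 228 CPM in the other cells. Its 1405 WT and 154 KO UMIs were concentrated: 5 cells held 88.4% of them in WT and 79.2% in KO. Without those cells it was at 17.9 and 2.86 CPM. With doublet calls left out it was at 76.7 and 3.75 CPM, a mean below the 50 CPM needed to be counted. Of the 10 basophil or mast genes only Prss34 was at level, and the list summed to 283 and 83.0 CPM. Mcpt8, a basophil protease, was at 47.3 and 21.8 CPM, a ratio of 0.461.

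The remaining low genes did not reach 1.5-fold, apart from Hba-a2. Retnlg, a gene of late neutrophils, was at 270.1 and 182 CPM, a ratio of 0.673 (0.634 to 0.714), and 0.856 without the neutrophil-like and erythroid-like sub-clusters. Klf2, a transcription factor of quiescence in leukocytes, was at 824 and 565 CPM in WT and KO, a ratio of 0.686 (0.663 to 0.709), and at 381 and 244 CPM in the other cells. Its ratio was below 1 in each of the 9 sub-clusters, from 0.421 in the erythroid-like to 0.831 (0.594 to 1.18) in the conventional dendritic-like one. Klf6, an early response factor, was at 619 and 452 CPM, against 350.2 and 259 CPM in the other cells. The chemokine genes Ccl4 and Ccl3 were at 278 and 186 CPM in WT and 188 and 129 CPM in KO. Ptpn12, Plcb1, Eeig2, Hcst, Rhob and Dhx40 completed the 12, with ratios between 0.691 and 0.733.

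No gene of the regulator lists passed 1.5-fold. Over all 3293 genes at level the median log2 ratio was -0.01 with an SD over genes of 0.16. The medians of the lists below lie within that SD. The share of all genes with a ratio below 1 was not counted, so the counts by direction are not read as shifts of a list. Of 13 immediate early and heat shock genes at level, 11 had ratios below 1, with a median log2 ratio of -0.14, and in the other cells the median was -0.16. Of 14 transcription factors of mononuclear phagocytes at level, 12 were below 1, with medians of -0.14 and -0.06, and 0 passed 1.5-fold. Irf8 and Klf4, both of this list, had ratios of 0.836 and 0.816. Of 18 classical monocyte genes at level, 7 were above 1 and 11 below, with a median of -0.05, and 0 passed 1.5-fold. The lysosomal list had 12 of 15 below 1 and a median of -0.09, and the glycolysis list 8 of 12 above 1 and a median of 0.13. The genes of the rule, which could be affected by the choice of cells, had ratios between 0.81 for Fn1 and 1.12 for Ccr2.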

How the data were processed

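The authors deposited UMI counts per gene and cell, whole numbers with no normalization, made with Cell Ranger 7.1.0 against mm10, per the submitters' processing notes. The gene annotation is not given in the sources used here, and positions come from GENCODE M21 (GRCm38). A cell needed 500 genes, 1000 UMIs and no more than 10% mitochondrial UMIs. UMIs were summed per library and cell set and scaled to CPM, and log2 ratios used a pseudocount of 1 CPM. Intervals are exact Poisson, Clopper-Pearson and conditional binomial intervals at 95%. Sub-clusters came from scanpy 1.11.5 (Leiden resolution 0.5, 2000 variable genes, 20 principal components, 15 neighbours), with markers 1.5-fold higher for at least 50% of a set, and at least 3, needed for a name. Doublets were called by Scrublet per library (expected rate 0.08) and kept. Named genes came from 32 gene lists and from the 12 highest and lowest ratios. The choice of cells and the lists were made with earlier results of these data known. The ratio and interval steps were tested on simulated data.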

Additional observations from a re-analysis of the deposited data

How the results depend on the processing

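The share of monocytic cells, 5.80% in WT and 6.61% in KO, was 6.91% and 7.92% with 3 or more of the 8 genes, 4.49% and 4.89% with 5 or more, 2.61% and 3.01% in cells thinned to 2000 UMIs, 7.02% and 8.12% with 1000 or more genes and 2000 or more UMIs, and 4.39% and 4.99% with 4 or more of the 6 given markers. The 362 genes higher than in the other cells numbered 104 at 3-fold, 885 at a level of 10 CPM, 711 in thinned cells and 623 against cells with none of the 8 genes. The 9 genes higher in KO numbered 31 at a mean of 10 CPM, 5 at 100 CPM, 16 with equal weight per cell and 23 in thinned cells. The 2 lower genes numbered 25, 1, 6 and 21 in the same settings, 0 with doublets left out (Prss34 then lay below the mean level and Hba-a2 in the other direction, at a log2 ratio of 0.67) and 7 with 5 or more of the 8 genes. The share with 3 or 4 granule genes was 53.5% in WT and 49.9% in KO after thinning to 1000 UMIs. Of 24 ranked genes, 0 changed direction under the 11 settings applied to single genes, of which the 2 that leave out sub-clusters were added after the data were seen, while Csf1r, Egr1, Elane, Fos, Ly6c2, Ly86 and Ms4a6c did under at least 1 of them. Across these settings the log2 ratio of Cd74 ran from 0.79 to 1.14 and that of H2-Aa from 0.65 to 0.95. The cause of these changes was not tested. No paired analysis was possible because each group has 1 library.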

Other observations

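Xist had 0 UMIs in the monocytic cells of both libraries, and the Y-linked gene Ddx3y was at 68.2 and 66.0 CPM in WT and KO. The paralog Rbm6 was at 114 and 101 CPM and Rbm10 at 32.2 and 28.7 CPM. Myc is the transcription factor named in the title of the series. It was at 49.1 and 36.8 CPM in WT and KO monocytic cells, against 24.8 and 25.2 CPM in the other cells. The 5 MLL-fusion and self-renewal genes at level all had ratios below 1, with a median log2 ratio of -0.09 and 0 past 1.5-fold. That median lay within the SD over all genes of 0.16.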
